A study of Mus musculus with 12 samples.

Results

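The 8 genes described here are transcription factors that hold the identity of the intestinal epithelium: Cdx1, Cdx2, Hnf4a, Hnf4g, Gata6, Klf5, Elf3 and Isx. They were chosen by name from the 54232 genes of the count table, and all 8 were in the table and passed the filter on low counts. Sorted intestinal stem cells (ISCs) of the small intestine came from mice aged 2 months (young) or 22 months (old), and a 3′ RNA sequencing library was made for each of 12 samples, 3 in each of 4 groups. The SM6 groups came from wild-type C57/Bl6 mice and were sorted by surface markers, with CD45+ and CD31+ cells removed. The Lgr5-GFP groups came from Lgr5-EGFP-IRES-CreERT mice (CreERT2 in the study's methods), in which the promoter of the ISC receptor gene Lgr5 drives a green fluorescent protein and an inducible Cre. The mice were female, and no other allele or treatment is given. Strain and isolation changed together and cannot be told apart. The labels describe the surface marker sort for every library, while a supplementary legend has the reporter mice sorted by fluorescence, so the isolations are named here as the sample titles name them.

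Cdx1 and Cdx2 are caudal-type homeobox factors, and loss of Cdx2 in the gut lets genes of more anterior organs come on. Hnf4a and Hnf4g are nuclear receptor paralogs that bind the enhancers of enterocyte genes and act redundantly there, and Gata6 is a zinc finger factor that maintains crypt cells and small intestinal character. Klf5 is a Krüppel-like factor of dividing crypt cells, Elf3 is an epithelial ETS factor needed for the maturing of enterocytes and goblet cells, and Isx is an intestine-specific homeobox factor that represses the retinoid and carotenoid uptake genes Scarb1 and Bco1. Together these factors open and hold the chromatin at genes of absorption, adhesion and the brush border. They are expressed from crypt to villus, so they are not markers of ISCs alone.

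The libraries held between 970472 and 3815425 counts (median 1424340). ISC markers were detected in every group (10 of 10 genes). Their summed level in CPM, counts relative to library totals that were scaled by TMM (the trimmed mean of M values), was 12955 to 16020 in SM6 young, 8137 to 9331 in SM6 old, 12638 to 14374 in Lgr5-GFP young and 10720 to 12348 in Lgr5-GFP old, so that old libraries lay below young ones in both isolations. Most of this sum was Olfm4, and the other 9 genes summed to 3635 to 4252 CPM in SM6 young and 2459 to 2779 in SM6 old, but to 3260.1 to 3934 in Lgr5-GFP young and 3156 to 3587 in Lgr5-GFP old, which overlapped. In SM6, 3 of the 10 ISC markers were called lower in old mice (1.77% of all genes were), and in Lgr5-GFP 0 of 10 were called. Immune markers summed to 5.79 to 32.4 CPM and stromal and endothelial markers to 0 to 8.68 CPM, with Cd79a, Col3a1 and Pdgfra at 0 in every library. The alpha-defensin genes of Paneth cells made up 23.1% of SM6 old replicate 3 and 23.2% of Lgr5-GFP young replicate 1, against 1.26% to 12.4% in the other libraries. In bulk libraries such as these, fewer cells of a type and less RNA per cell cannot be told apart.

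In GRCm38, Cdx2 (ENSMUSG00000029646) lies on chromosome 5 from 147300805 to 147307270, minus strand. Hnf4a (ENSMUSG00000017950) lies on chromosome 2 from 163506808 to 163572910, plus strand, and its paralog Hnf4g (ENSMUSG00000017688) on chromosome 3 from 3508030 to 3658052, plus strand. Klf5 (ENSMUSG00000005148) lies on chromosome 14 from 99298691 to 99315036, plus strand. Elf3 (ENSMUSG00000003051) lies on chromosome 1 from 135253575 to 135258568, minus strand, and Isx (ENSMUSG00000031621) on chromosome 8 from 74873173 to 74893506, plus strand. Elf3 shares 162 exon bases with the opposite-strand gene Gm26642, which held 0 to 3 counts per library. Whether strand was used in counting is not stated, so reads of such overlaps could not be assigned with certainty. All 8 factors are protein coding.

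RefSeq promoter windows on GRCm38.p6 matched 4 of the 8 factors, in 5 windows, each cut here to the 250 bases before the RefSeq start, which need not be the GENCODE gene end given above. The windows of Cdx2 and Hnf4a are shown because they carry letters bound by other factors of this network. Hnf4a has 2 such windows, 40.3 kb apart, while GENCODE gives it 4 coding starts, and a count per gene does not separate its transcripts. Capitals mark matches to the searched letters, and each sequence is written in the direction of transcription.
Cdx2, chr5:147307250-147307499, minus strand: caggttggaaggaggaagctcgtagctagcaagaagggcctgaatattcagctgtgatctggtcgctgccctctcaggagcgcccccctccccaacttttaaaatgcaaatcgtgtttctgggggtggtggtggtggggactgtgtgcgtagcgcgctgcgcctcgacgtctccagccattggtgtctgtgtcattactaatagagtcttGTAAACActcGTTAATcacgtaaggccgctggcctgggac
Hnf4a upstream start, chr2:163506607-163506856, plus strand: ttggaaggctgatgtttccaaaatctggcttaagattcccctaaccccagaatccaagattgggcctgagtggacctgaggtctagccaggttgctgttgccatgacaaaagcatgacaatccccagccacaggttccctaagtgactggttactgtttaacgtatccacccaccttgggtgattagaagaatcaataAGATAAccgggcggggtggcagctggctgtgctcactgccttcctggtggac
Hnf4a downstream start, chr2:163546905-163547154, plus strand: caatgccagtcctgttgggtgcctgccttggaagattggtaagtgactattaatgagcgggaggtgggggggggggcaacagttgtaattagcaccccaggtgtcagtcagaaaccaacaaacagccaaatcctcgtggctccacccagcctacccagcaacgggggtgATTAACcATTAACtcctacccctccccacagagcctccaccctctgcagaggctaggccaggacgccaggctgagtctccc
The searched letters, on both strands, were GTTAAT for an HNF1 half-site, TGTTTAC for FOXA, AGATAA for GATA, CAAAGTCCA for HNF4 and TTTAT for CDX, and the marked matches do not overlap. In the Cdx2 window, the HNF1 letters began 30 bases and the reverse FOXA letters (GTAAACA) 40 bases before the start. The upstream Hnf4a window held the GATA letters 52 bases before its start, and the downstream one held the reverse HNF1 letters (ATTAAC) at 81 and again at 74 bases. Neither the Elf3 nor the Isx window held any of the 5. Of all 32851 promoter windows of this length, 6.43% held the HNF1 letters, 3.17% the FOXA letters, 9.99% the GATA letters, 0.384% the HNF4 letters and 37.3% the CDX letters. A match describes letters and not a bound site.

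None of the 8 factors passed an adjusted p of 0.05 in any of the 5 comparisons, by edgeR's quasi-likelihood test with Benjamini-Hochberg adjustment over 13368 genes. The comparisons were old against young within SM6, within Lgr5-GFP and averaged over both, the difference of those age effects (Lgr5-GFP minus SM6), and Lgr5-GFP against SM6 averaged over age. Over all genes tested, 2.42%, 0.471%, 2.66%, 0.658% and 0.352% were called in these comparisons. The smallest adjusted p among the factors was 0.143 in SM6 (Klf5), 0.242 in Lgr5-GFP (Elf3), 0.107 on average (Cdx2), 0.179 for the difference (Gata6) and 0.358 between isolations (Hnf4a). At an unadjusted p under 0.05 the counts were 3, 2, 2, 2 and 1 of 8, where 13.1%, 9.79%, 12.8%, 9.43% and 7.69% of all genes passed. DESeq2 and limma voom with quality weights each called 1 factor in SM6, Klf5, and none in the other comparisons, and edgeR's likelihood ratio test called none. The 95% intervals (unadjusted) lay wholly within a change of 1 on the log2 scale for 5 factors in SM6, 7 in Lgr5-GFP, 7 on average, 5 for the difference and all 8 between isolations.

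**Figure D1:**
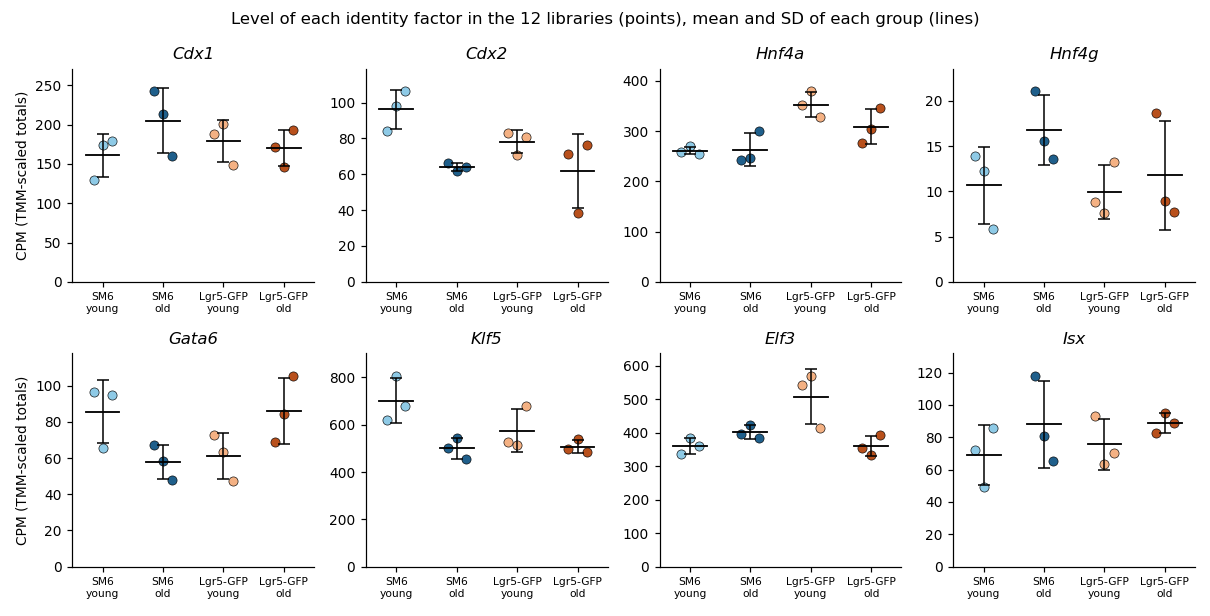
Level of each identity factor in CPM (vertical axes, linear from 0) in the 3 libraries of each group, in replicate order, with the group mean as a long bar and the SD as whiskers. SM6 old libraries lie below SM6 young ones for Cdx2 and Klf5, Lgr5-GFP old libraries lie below Lgr5-GFP young ones for Elf3, and the other age groups overlap except Elf3 in SM6.

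Cdx2, the factor that specifies hindgut epithelium, was at 84.3, 98.1 and 106 CPM in SM6 young libraries and at 66.2, 61.8 and 63.9 CPM in SM6 old libraries. In Lgr5-GFP it was at 83.2, 70.9 and 80.7 CPM in young and at 71.3, 38.2 and 76.2 CPM in old libraries. Every SM6 old library was thus below every SM6 young library, while the Lgr5-GFP ages overlapped and old replicate 2 was the lowest of all 12. The log2 estimate was −0.59 ± 0.21 (SE, adjusted p = 0.165) for old SM6, with a 95% interval of −1.01 to −0.16, and −0.35 ± 0.21 (adjusted p = 0.631) for old Lgr5-GFP, the latter −0.098 without Lgr5-GFP old replicate 2. On average it was −0.47 ± 0.15 (SE, adjusted p = 0.107), with a 95% interval of −0.77 to −0.16. With every gene of at least 1 count over all 12 libraries kept in the fit, this average passed the threshold (−0.48, adjusted p = 0.0456). Over its 22 alternatives the adjusted p ran from 0.0456 to 0.232. The paralog Cdx1 (ENSMUSG00000024619; chromosome 18, 61018862 to 61036199, minus strand) was at 129.9, 175 and 179 CPM in SM6 young libraries, at 242, 214 and 159.8 in SM6 old, at 188, 200.4 and 149 in Lgr5-GFP young and at 172, 146 and 193 in Lgr5-GFP old. All groups overlapped, with log2 fold changes for age of 0.35 ± 0.19 (SE) in SM6, which ran from 0.22 to 0.51 without 1 library, and −0.07 ± 0.19 in Lgr5-GFP.

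Within a library, the ratio of the 2 Cdx counts does not depend on the scaling of totals. SM6 young libraries held 1.54, 1.78 and 1.69 Cdx1 counts per Cdx2 count, and SM6 old libraries held 3.66, 3.46 and 2.50. The old libraries of SM6 all had the higher ratio. In Lgr5-GFP the ratios were 2.27, 2.83 and 1.84 in young and 2.41, 3.83 and 2.53 in old libraries, which overlapped. These ratios were looked at after the levels were known and are given as a description. They set counts of each gene in the same library side by side and say nothing of which of the genes has more transcripts.

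**Figure D2:**
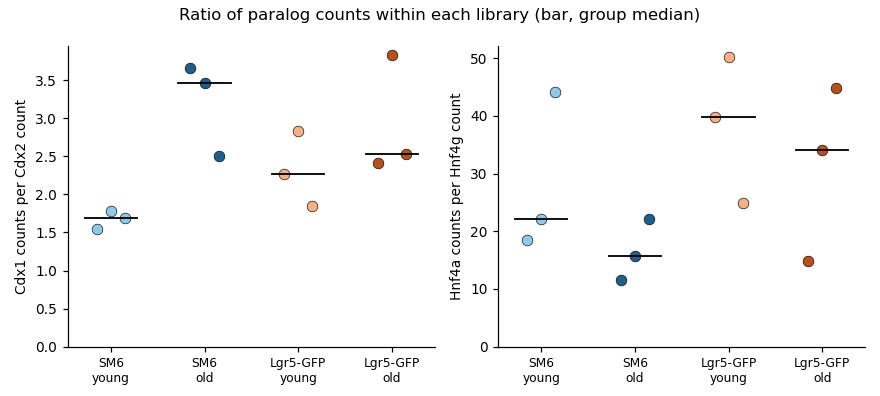
Cdx1 counts per Cdx2 count (left) and Hnf4a counts per Hnf4g count (right) in each of the 3 libraries of a group, linear axes from 0, with the group median as a bar. The Cdx ratio of SM6 old libraries (2.50 to 3.66) lies above that of SM6 young libraries (1.54 to 1.78), while the Hnf4 ratio overlaps between ages in both isolations.

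Hnf4a was at 258, 269 and 255 CPM in SM6 young libraries and at 242, 246 and 300.4 in SM6 old libraries, which overlapped. In Lgr5-GFP it was at 351, 379 and 329 CPM in young and at 277, 305 and 345 CPM in old libraries, which overlapped too. Its log2 fold change for age was 0.0078 ± 0.16 (SE) in SM6, with a 95% interval of −0.32 to 0.33, and −0.19 ± 0.16 in Lgr5-GFP, with an interval of −0.51 to 0.13. Between isolations Hnf4a had the smallest p of the 8 factors, at 1.26-fold higher in Lgr5-GFP (log2 0.33 ± 0.11 SE, adjusted p = 0.358). Its 3 Lgr5-GFP young libraries were above all SM6 young ones, and the old libraries overlapped.

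Hnf4g was counted 8 to 32 times per library, the fewest of the 8 factors, and counting error limits it most. It was at 14.0, 12.2 and 5.78 CPM in SM6 young libraries, at 21.0, 15.6 and 13.6 in SM6 old, at 8.82, 7.56 and 13.2 in Lgr5-GFP young and at 18.7, 8.94 and 7.72 in Lgr5-GFP old. The ages overlapped in both isolations. The intervals of its age effect were wide, from −0.20 to 1.45 on the log2 scale in SM6 and from −0.59 to 1.10 in Lgr5-GFP, so an increase of 1 lay within both. The count ratio of Hnf4a to Hnf4g was 18.5, 22.1 and 44.1 in SM6 young, 11.5, 15.7 and 22.1 in SM6 old, 39.8, 50.1 and 24.8 in Lgr5-GFP young and 14.9, 34.1 and 44.8 in Lgr5-GFP old libraries, with the ages overlapping in each isolation.

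Gata6 (ENSMUSG00000005836; chromosome 18, 11052064 to 11085635, plus strand) had estimates of opposite sign in the isolations. It shares 93 exon bases with the opposite-strand gene 1010001N08Rik, which held 14 to 52 counts per library. It was at 96.5, 65.4 and 94.7 CPM in SM6 young and at 67.0, 58.4 and 47.9 CPM in SM6 old libraries. In Lgr5-GFP it was at 72.8, 63.3 and 47.2 CPM in young and at 68.6, 84.6 and 105 CPM in old libraries. For Gata6, in each isolation 1 young library reached into the range of the old ones. The log2 fold change for age was −0.56 ± 0.22 (SE, adjusted p = 0.237) in SM6 and 0.48 ± 0.22 (adjusted p = 0.463) in Lgr5-GFP, and these signs were the same in every alternative tried. Without 1 library the values ran from −0.72 to −0.44 in SM6 and from 0.32 to 0.66 in Lgr5-GFP. The difference of the age effects was 1.04 ± 0.31 (SE), with an unadjusted 95% interval of 0.41 to 1.68, and did not pass over all genes (adjusted p = 0.179). With totals not scaled further it was 1.40 and passed (adjusted p = 0.0359), a setting in which the median difference over all genes moved to 0.353.

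Klf5 was at 618, 805 and 681 CPM in SM6 young libraries and at 503, 543 and 455 CPM in SM6 old libraries, so every old library was below every young one. In Lgr5-GFP it was at 527, 516 and 679 CPM in young and at 499, 538 and 484 CPM in old libraries, which overlapped. The estimate was 1.40-fold lower in old SM6 (log2 −0.49 ± 0.16 SE, adjusted p = 0.143). DESeq2 (−0.47, adjusted p = 0.0467) and limma voom with quality weights (−0.49, adjusted p = 0.0456) put it past the threshold, and over all 23 alternatives its adjusted p ran from 0.0456 to 0.493. In Lgr5-GFP the log2 fold change was −0.18 ± 0.16 (SE, adjusted p = 0.793), or −0.040 without young replicate 3, and the difference between the isolations was 0.31 with a 95% interval of −0.17 to 0.79.

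Elf3 was at 337, 384 and 359.9 CPM in SM6 young and at 397, 425 and 386 CPM in SM6 old libraries, where the old libraries were all higher by a narrow gap. In Lgr5-GFP it was at 542, 569 and 414 CPM in young and at 355, 335 and 394 CPM in old libraries, where the old libraries were all lower. The log2 fold change for age was 0.16 ± 0.16 (SE, adjusted p = 0.758) in SM6 and −0.49 ± 0.16 (adjusted p = 0.242) in Lgr5-GFP, where the latter is 1.40-fold lower. The difference of the age effects was −0.65 ± 0.23 (SE), with a 95% interval of −1.12 to −0.18 and an adjusted p of 0.318.

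Isx was at 72.2, 49.3 and 86.0 CPM in SM6 young, at 118, 80.8 and 65.5 in SM6 old, at 93.2, 63.3 and 70.4 in Lgr5-GFP young and at 82.6, 95.1 and 88.7 in Lgr5-GFP old libraries, and the ages overlapped in both. Its log2 fold change for age was 0.35 ± 0.23 (SE) in SM6 and 0.21 ± 0.22 in Lgr5-GFP. Leaving out 1 library moved the former between 0.11 (without SM6 old replicate 1) and 0.54 and the latter between 0.11 and 0.40. The genes that Isx is known to repress were too low for a change to be read at this depth, with 2 to 17 counts per library for Scarb1 and 0 to 9 for Bco1.

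**Figure D3:**
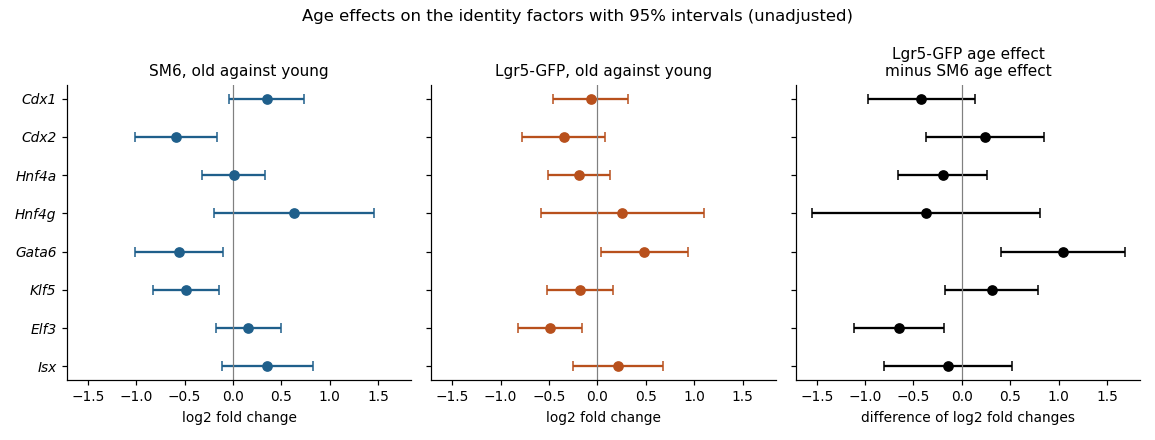
Log2 fold change of each identity factor, old against young, in SM6 (left) and in Lgr5-GFP (middle), and the difference of both (right), with unadjusted 95% intervals from the quasi-likelihood fit. The interval of the difference lies above 0 for Gata6 (0.41 to 1.68) and below 0 for Elf3 (−1.12 to −0.18), and neither passed adjustment over all genes.

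Counted by libraries, 3 of the 8 factors did not overlap between the ages in SM6 (Cdx2 and Klf5 lower, Elf3 higher in old), against 17.5% of all genes. In Lgr5-GFP 1 of 8 did not (Elf3, lower), against 14.6%. In neither direction did any factor separate the ages in both isolations, as 2.03% of all genes did. Between the isolations, 3 of 8 did not overlap in young mice (Cdx2 lower, Hnf4a and Elf3 higher in Lgr5-GFP), against 13.7% of all genes, and 1 of 8 in old mice (Gata6, higher), against 13.5%. When the 4 groups were ordered by mean level for each factor, 2 of the 24 neighbouring pairs did not overlap, against 5.36% of such pairs over all genes. Both were of Cdx2, in which SM6 young was above Lgr5-GFP young and the latter above SM6 old. All other neighbours in the order of levels overlapped.

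The biological coefficient of variation between libraries of a group, as fitted by edgeR, was 14.6% to 18.3% for 7 of them and 26.6% for Hnf4g, beside a median of 23.0% over all genes tested. Across the 12 libraries, the highest Pearson correlations of log2 CPM between factors were 0.628 for Hnf4a with Elf3 and 0.561 for Cdx2 with Klf5, and the lowest was −0.526 for Hnf4a with Hnf4g. After the group means were taken out, these values were 0.394, −0.0881 and −0.593. The highest values were then 0.732 for Cdx1 with Elf3 and 0.723 for Gata6 with Isx. The libraries share their depth and scaling across genes, and these values are descriptions over 4 groups. Among the 4772 genes whose mean log2 CPM reached 5, the closest in pattern to each factor were Ube2m (0.909) and Mrpl43 (0.892) for Cdx1, Ilkap (0.877) and Clip1 (0.870) for Cdx2, Tpp2 (0.901) and Ube2j1 (0.879) for Hnf4a, and Cdc37l1 (0.892) and Usp15 (0.861) for Hnf4g. For the other factors they were Erbb3 (0.864) and Eef2 (0.822) for Gata6, Adipor1 (0.921) and Nucks1 (0.918) for Klf5, Dnaja1 (0.866) for Elf3, and Sqor (0.808) and Aoc1 (0.802) for Isx.

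Of 26 partner factors, which bind with or alongside the 8 in gut and liver, 24 were tested, since Prdm1 reached at most 4 counts and Cdx4 had 0. The forkhead factor Foxa3 was the 1 called in SM6 (4.17%, where 1.77% of all genes were called lower), at 269, 293 and 314 CPM in young and 159.8, 111 and 202 CPM in old libraries. It was 1.86-fold lower in old (log2 −0.89 ± 0.18 SE, adjusted p = 0.007), and without SM6 old replicate 2 this call was lost (−0.69, adjusted p = 0.0617). In Lgr5-GFP Foxa3 was at 219.9, 223 and 215 CPM in young and 159, 163 and 137 CPM in old libraries, which did not overlap either (−0.52, adjusted p = 0.288). On average over the isolations it fell by 0.71 on the log2 scale (SE 0.13, adjusted p = 0.00244), where 2.06% of all genes were called lower, and it passed in all 22 alternatives of that comparison.

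Creb3l3, a membrane-bound factor of lipid metabolism, was the other partner called on average, 2.61-fold higher in old (log2 1.38 ± 0.36 SE, adjusted p = 0.0338). With Foxa3 this made 8.33% of the tested partners called, where 2.66% of all genes were called and 0.598% called higher. Its old libraries were uneven, at 75.6, 36.6 and 16.0 CPM in SM6 and 28.7, 120.3 and 17.4 CPM in Lgr5-GFP, while young libraries lay between 13.7 and 24.0 CPM. Of the 12 fits that left out 1 library, 9 lost the call. Without Lgr5-GFP old replicate 2, which held the 120.3 CPM, the estimate was 0.76 (adjusted p = 0.21). No partner was called in Lgr5-GFP, in the difference or between isolations. The median age effect of the partners was −0.23 in SM6 and 0.05 in Lgr5-GFP on the log2 scale, beside −0.01 and −0.03 over all genes.

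Targets of these factors in enterocytes were called higher in old SM6 and lower in old Lgr5-GFP, but the called genes were different ones. The target list, like that of the partners, was chosen with earlier results of these data known, so the shares of it called are a description. It holds 9 of the 10 enterocyte markers. Of 27 targets, all tested, 5 were called higher in old SM6 and none lower (18.5%, where 0.643% of all genes were called higher): Sis and Alpi, which encode brush border enzymes, Fabp1 and Fabp2, which carry fatty acids, and the keratin Krt20. In Lgr5-GFP none was called higher and 3 were called lower (11.1%, where 0.284% of all genes were called lower): the lactase gene Lct and the apolipoprotein genes Apoa1 and Apoa4. No target was called in both. Of the genes called in SM6, Fabp1 had a log2 estimate of 2.59 in Lgr5-GFP (adjusted p = 0.0779), beside 2.66 in SM6. Fabp2 was at 0.40 in Lgr5-GFP, while Sis, Alpi and Krt20 were at −0.91, −1.37 and −1.20. The mitochondrial share of counts was 4.02% to 6.29% in Lgr5-GFP young and 7.37% to 9.33% in Lgr5-GFP old libraries, which did not overlap, and 6.39% to 7.01% in SM6 young and 5.77% to 6.85% in SM6 old libraries. Its part in the values of the targets was not tested. The median age effect of the targets was 0.61 in SM6 and −0.40 in Lgr5-GFP on the log2 scale. Of the 27, 15 were higher in SM6 and lower in Lgr5-GFP, 5 were higher in both, 6 lower in both and 1 the other way round.

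**Figure D4:**
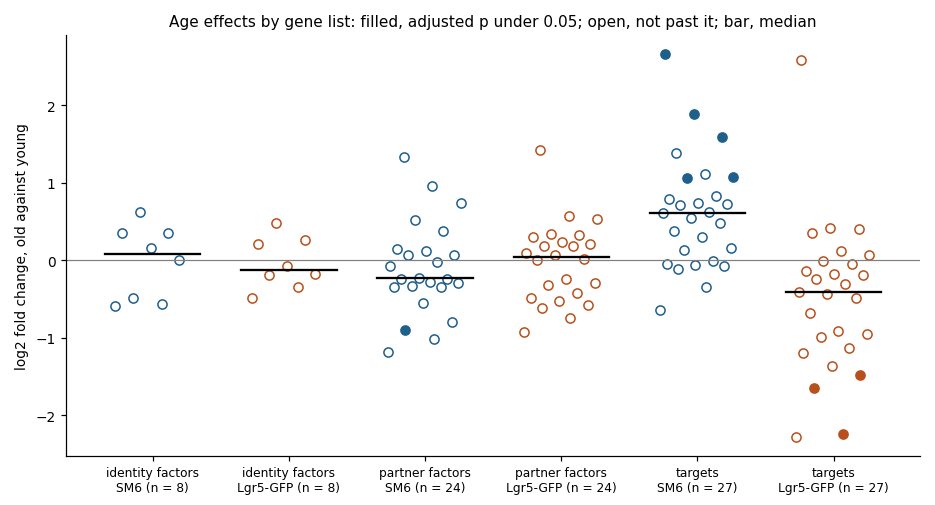
Log2 fold change, old against young, of the 8 identity factors, the 24 tested partner factors and the 27 targets in SM6 (blue) and Lgr5-GFP (orange), with filled circles for an adjusted p under 0.05, open circles for the rest and a bar at each median. The identity factors lie between −0.59 and 0.63 with no call, while the targets reach from −2.27 to 2.66 with 5 called higher in SM6 and 3 called lower in Lgr5-GFP.

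The difference of the age effects was called for 6 of the 27 targets (22.2%, where 0.606% of all genes were called in this direction), and all 6 had the lower age effect in Lgr5-GFP. Lct was at 11.5, 11.6 and 29.6 CPM in SM6 young, 60.8, 53.6 and 20.8 in SM6 old, 25.2, 17.0 and 35.6 in Lgr5-GFP young and 4.00, 8.94 and 3.86 in Lgr5-GFP old libraries. Old libraries were thus mixed with young ones in SM6 and all lower in Lgr5-GFP, and the difference was −3.63 ± 0.62 (SE, adjusted p = 0.00554). Apoa1 was at 267, 298 and 411 CPM in SM6 young, 1054, 786 and 281 in SM6 old, 360.1, 268 and 471 in Lgr5-GFP young and 144, 164 and 86.8 in Lgr5-GFP old libraries, a difference of −2.60 ± 0.45 (SE, adjusted p = 0.00574). Krt20 was at 66.1, 35.5 and 62.1 CPM in SM6 young and 146, 120.8 and 76.7 in SM6 old, and at 44.1, 54.8 and 62.9 in Lgr5-GFP young and 32.0, 24.4 and 11.6 in Lgr5-GFP old libraries, where both pairs of ages were apart in opposite directions. Its difference was −2.28 ± 0.41 (SE, adjusted p = 0.00772). SM6 old replicate 3 was the lowest SM6 old library for each of these 3 genes, and for Lct and Apoa1 it lay within the SM6 young range.

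**Figure D5:**
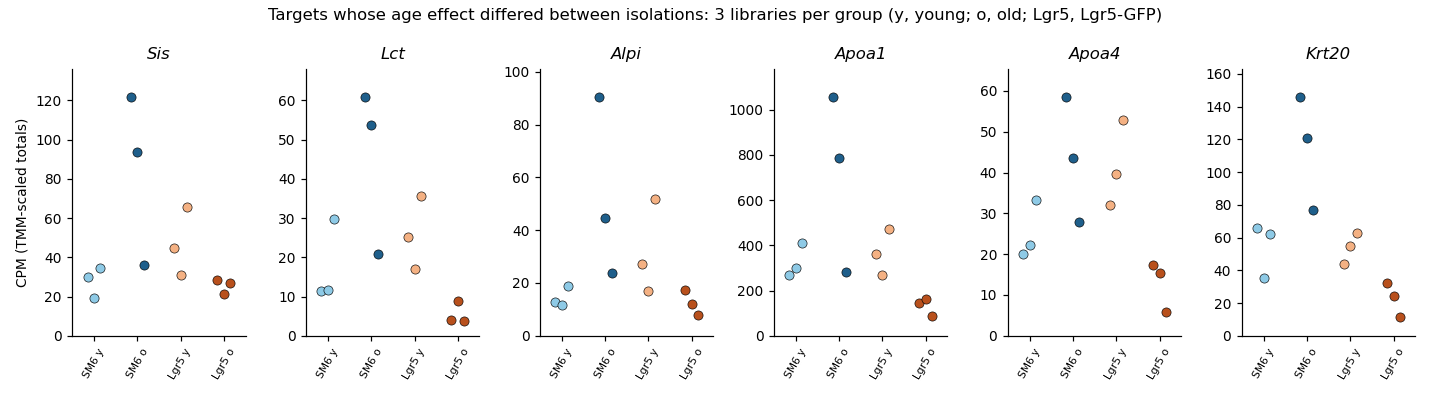
Level in CPM (linear axes from 0, each gene on its own) of the 6 targets whose age effect differed between the isolations, in the 3 libraries of each group in replicate order. SM6 old replicate 3 is the lowest of the SM6 old libraries in every panel, and Lgr5-GFP old libraries lie below all Lgr5-GFP young ones in every panel but that of Alpi.

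On average over the isolations, Fabp1 (log2 2.62 ± 0.46 SE, adjusted p = 0.00173) and Fabp2 (0.73 ± 0.19, adjusted p = 0.0286) were called higher in old, 7.41% of the targets where 0.598% of all genes were. Fabp1 was uneven among old libraries, at 5563, 1835 and 1027 CPM in SM6 and at 1334, 9851 and 780.2 CPM in Lgr5-GFP, beside 272 to 1023 CPM over the 6 young libraries. Without Lgr5-GFP old replicate 2 its average estimate was 1.67, still past the threshold. Fabp2 lost its average call in 8 of the 12 fits without 1 library, among them that without Lgr5-GFP old replicate 2 (0.53, adjusted p = 0.102). Between isolations, Apoa1 (−1.12 ± 0.23 SE, adjusted p = 0.0206) and Krt20 (−1.15 ± 0.21, adjusted p = 0.00614) were lower in Lgr5-GFP (7.41% of the targets), where 0.277% of all genes were called lower, and the call of Apoa1 was lost in 5 of the 12 fits without 1 library (adjusted p up to 0.0937, without SM6 old replicate 1). These are averages over age of genes whose age effects differed. In young mice the isolations overlapped, with means of 325 CPM in SM6 and 366 in Lgr5-GFP for Apoa1 and of 54.6 and 53.9 for Krt20. In old mice they did not overlap, with means of 707 and 132 CPM for Apoa1 and of 114 and 22.7 for Krt20. In the same averaged comparison, 5 of 7 enteroendocrine markers (median log2 −2.24) and 5 of 7 goblet cell markers (median −1.19) were called lower in Lgr5-GFP, where the goblet cell sums overlapped between isolations in young mice and did not in old mice. Enteroendocrine markers summed to 683 to 3044 CPM over the SM6 libraries and to 57.9 to 235 CPM over the Lgr5-GFP libraries.

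The calls within 1 isolation rested on few libraries. In SM6 the count of called targets was 0 without young replicate 2, 0 without old replicate 1, 3 without young replicate 1, 3 without old replicate 2 and 10 without old replicate 3. Over all genes, the count called in SM6 fell from 323 to 146 without young replicate 2 and to 158 without old replicate 1. In Lgr5-GFP it was 0 without young replicate 3, 0 without old replicate 1, 1 without young replicate 1, 1 without old replicate 3 and 5 without SM6 old replicate 3. The 6 differences of age effects were called in all 22 alternatives. Cdh17, an adhesion gene that Cdx2 is known to drive, had age effects of 0.17 in SM6 and −0.05 in Lgr5-GFP, and the brush border gene Vil1 of −0.04 in SM6, none called.

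Marker lists of other cell types also held called genes, beside 0.643% of all genes called higher in old SM6, 0.284% called lower in old Lgr5-GFP and 0.606% called lower in the difference. Of the 10 enterocyte markers, 9 are among the targets, and their sum was 1808 to 1937 CPM in SM6 young, 2472 to 9156 in SM6 old, 1657 to 2960 in Lgr5-GFP young and 1964 to 11799 in Lgr5-GFP old libraries. The upper end of the last range is replicate 2, where Fabp1 alone was at 9851 CPM. The median age effect of this list was 1.09 in SM6, with 4 of 10 called higher, and −1.16 in Lgr5-GFP, with 3 of 10 called lower. Goblet cell markers summed to 5705 to 9116 CPM in SM6 young and 17307 to 18224 in SM6 old, and to 5298 to 13740 in Lgr5-GFP young and 3153 to 5495 in Lgr5-GFP old libraries, with 5 of 7 called higher in old SM6, 0 called in Lgr5-GFP and 3 called lower in the difference. Paneth cell markers summed to 10664 to 67291 CPM in SM6 young, 43942 to 272425 in SM6 old, 42962 to 243875 in Lgr5-GFP young and 18058 to 30763 in Lgr5-GFP old libraries, with 2 of 8 called higher in old SM6, 2 called lower in old Lgr5-GFP and all 8 called lower in the difference. Of 7 enteroendocrine markers, 1 was called higher in old SM6, 0 in Lgr5-GFP and 1 lower in the difference, with median age effects of 0.64 in SM6 and −0.85 in Lgr5-GFP. Genes of dividing cells had no call in any comparison (0 of 7), with sums of 1325 to 1723, 1142 to 1373, 1229 to 1782 and 1234 to 1423 CPM in the same order. The part of these cell types in the values of the targets, and in those of the 8 factors, was not tested.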

How the data were processed

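RNA was measured by 3′ RNA sequencing in 12 libraries of sorted mouse ISCs, 1 mouse per library and 3 libraries per group. The authors aligned reads to GRCm38 with STAR 2.4.2a and counted them over GENCODE vM15 genes with featureCounts. The deposited values are raw counts per gene, not scaled. Reads carried unique molecular identifiers, and whether they were collapsed by them is not stated, so counts may not be independent molecules. Of 54232 genes, 54079 had a symbol. Groups were read from the sample labels, which name no batch. Counts were analysed with edgeR 4.0.16 in R 4.3.3. Genes with more than 5 reads and at least 1 CPM in at least 1 library were kept (13368), totals were scaled by TMM, and 1 mean per group was fitted over all 12 libraries (common dispersion 0.0434). Tests were two-sided, and an adjusted p under 0.05 was the threshold for a call. Differential tests in the study used other libraries. P-values set a difference of group means against the spread between libraries within groups, estimated over all 4 groups. Libraries were 970472 to 3815425 counts deep. The script was tested on simulated data. DESeq2 1.42.0 and limma 3.58.1 were alternatives, with other scalings, filters and left-out libraries. Gene positions come from GENCODE vM21, promoters from RefSeq.

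The 8 members, the partner, target and marker lists and the rule for named genes were chosen with earlier results of these data known. By that rule all members were named, then every called partner or target where at most 6 of a list were called, otherwise the 3 higher and 3 lower with the smallest adjusted p. Likeness was the Pearson correlation of log2 CPM (prior count 2), with the 2 closest genes given. The searched motifs, the count ratios, Cdh17, Vil1, Scarb1, Bco1 and the setting without the 2 libraries of highest defensin share were chosen after values were seen. All value columns were used. A gene of the target list and a gene of the likeness search are not reported here.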

Additional observations from a re-analysis of the deposited data

Results flagged for a closer look

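The age effect differed between the isolations for 6 targets of the identity factors, by the interaction term of edgeR's quasi-likelihood test with Benjamini-Hochberg adjustment over all genes. On the log2 scale, the age effect in Lgr5-GFP minus that in SM6 was −3.63 for Lct, −3.26 for Alpi, −2.60 for Apoa1, −2.51 for Sis, −2.44 for Apoa4 and −2.28 for Krt20, with adjusted p between 0.00554 and 0.0115. Without SM6 old replicate 1 the difference for Alpi was −2.66, still past the threshold. Among the 8 factors themselves, no difference of age effects passed.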

How the results depend on the processing

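The 40 estimates for the factors (8 genes in 5 comparisons) were refitted under 896 alternatives in all. Of these, 862 kept the sign and stayed short of the threshold, 4 passed it and 30 changed sign. In SM6, DESeq2 and limma voom each called 1 factor, against 0. With no filter beyond 1 count, 1 was called on average, and with library totals alone 1 in the difference. Library totals alone moved the median of all genes to −0.161 in SM6, 0.164 in Lgr5-GFP and 0.353 in the difference. In that setting Hnf4a became −0.16 in SM6, 0.0015 in Lgr5-GFP and 0.16 in the difference, Cdx1 0.13 in Lgr5-GFP, Gata6 0.00022 on average and Isx 0.21 in the difference. Voom gave Hnf4a −0.042 in SM6. Without the 2 libraries of highest defensin share, a setting added after the data were seen, Hnf4a was −0.095 in SM6, Gata6 0.11 on average and −0.11 between isolations, and Isx −0.10 between isolations. The cause of these changes was not tested.

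Leaving out 1 library moved Hnf4a in SM6 between −0.090 and 0.081, Cdx1 in Lgr5-GFP between −0.19 and 0.029, Hnf4g in Lgr5-GFP between −0.27 and 0.53, Cdx2 in Lgr5-GFP between −0.51 and −0.098, Klf5 in Lgr5-GFP between −0.25 and −0.040, Hnf4a in Lgr5-GFP between −0.28 and −0.12, Hnf4g in SM6 between 0.36 and 0.86, and Gata6 on average between −0.12 and 0.047. It moved Isx in the difference between −0.32 and 0.11, and, between isolations, Cdx1 between −0.13 and 0.019, Gata6 between −0.043 and 0.13 and Isx between −0.015 and 0.23. No factor was called in any of these fits. Targets called ranged from 0 to 10 in SM6, 0 to 5 in Lgr5-GFP, 1 to 3 on average, 6 to 9 for the difference and 1 to 3 between isolations, and partners from 0 to 2 in SM6 and 1 to 3 on average. All genes called ranged from 146 to 404, 26 to 113, 229 to 471, 43 to 98 and 27 to 62 in the same 5 comparisons.

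With no filter beyond 1 count, all genes called were 603 in SM6, 274 in Lgr5-GFP, 590 on average, 224 for the difference and 131 between isolations, against 323, 63, 355, 88 and 47. The likelihood ratio test called 527, 173, 158 and 113 (SM6, Lgr5-GFP, difference, isolations), library totals alone 97 in Lgr5-GFP, and between isolations voom called 28 and the fit without the 2 libraries 78. Partners called in SM6 were 2 with library totals alone, 2 with no filter, 2 by voom and 3 without the 2 libraries, against 1, and 1 in Lgr5-GFP with no filter, against 0. Targets called in SM6 were 3 with library totals alone, 8 with no filter, 8 by voom and 10 without the 2 libraries, against 5. In Lgr5-GFP they were 7 with no filter, 1 by voom and 6 by the likelihood ratio test, against 3, and between isolations 4 with no filter and 1 by DESeq2, against 2.

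Replicate numbers were not used as pairs in the main fit. Same-numbered libraries of different groups correlated in their deviations from group means between −0.127 and 0.235, with 2 of 18 over 0.1. Different-numbered ones lay between −0.264 and 0.298, with 5 of 36 over 0.1. With 3 libraries per group, these values cannot exclude a pairing. With the replicate block, 331, 57, 360, 104 and 46 genes were called in the 5 comparisons and 0 factors. Hnf4g, at 8 to 32 counts, is the factor that depth limits most.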
